A study of Mus musculus with 16 samples.

Results

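The 38 genes described here carry glucose through glycolysis and on to lactate or to mitochondrial pyruvate. They were chosen by name, as 38 of the 40840 genes in the count table, and comprise 3 glucose transporters, 9 genes of upper glycolysis, 8 of lower glycolysis, 4 of lactate conversion and export, 4 PFKFB enzymes, 4 pyruvate dehydrogenase kinases and 6 genes of pyruvate entry into mitochondria. RNA came from p53-/-; Myc hepatoblasts, a mouse liver progenitor line that the study uses as a model of hepatocellular carcinoma. Both alterations, the loss of the tumor suppressor p53 and the overexpression of the Myc oncogene, are carried by every sample, treated or not. The 16 libraries form 4 groups of 4 replicates: DMSO, the vehicle, for 48 hours; sorafenib, an inhibitor of several kinases, for 48 hours; DMSO for 7 days; and sorafenib for 7 days, at 1 concentration throughout. The labels do not say whether replicates were separate cultures, so the p-values measure the spread between these libraries, which may be technical. All groups come from 1 cell line, and no untreated group was compared.

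Glycolysis splits glucose into pyruvate in the cytosol, with hexokinase, phosphofructokinase and pyruvate kinase as its regulated steps. Lactate dehydrogenase turns pyruvate into lactate, which leaves the cell through monocarboxylate transporters. The alternative route takes pyruvate through the mitochondrial carrier to the pyruvate dehydrogenase complex, which makes acetyl-CoA and is switched off when pyruvate dehydrogenase kinases phosphorylate it. Most steps are served by several isozymes with different tissue distribution and control, and tumor cells often use a set that differs from that of the adult liver.

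Total counts ranged from 16586254 to 30828427 per library. In 1 library, sorafenib for 48 hours replicate 2, the ratio of its counts to the other libraries of its group dropped along the genome. From a place near the start of chromosome 15 to the end of the X chromosome, that ratio was 0.605 of its level over the genes before (a log2 step of -0.72). No other library had a step over 0.0394. The 7 members in this stretch are Pfkm, Mpc1, Pgam1, Pgk1, Pfkfb1, Pdk3 and Pdha1, and their 48-hour log2 fold changes are given with and without that library. The 48-hour values of the other members include that library, and an effect of the stretch on its scaling was not tested. Of the liver markers, Alb had at most 1 count and Hnf4a none in any library, whereas Dlk1, a hepatoblast marker, had 3488 to 38122 counts. The summed level of the 12 hepatoblast and epithelial markers was 35004 to 36371 normalized counts with DMSO for 48 hours, 12891 to 14810.0 with sorafenib for 48 hours, 18791 to 20606 with DMSO for 7 days and 6901 to 7167 with sorafenib for 7 days. Most of it was Dlk1, and without Dlk1 the sums were 3392 to 3678, 3026 to 3362, 2742 to 2862 and 2958 to 3111 in the same order. Of the 9 tested, 5 were lower and 2 higher at 48 hours and 6 lower and 2 higher at 7 days. Foxa2 (1.77 and 0.84 on the log2 scale) and Sox9 (1.64 and 1.37) were higher at both. Among the lower ones at both were Epcam (-2.13 and -2.66), Krt8 (-0.69 and -1.10) and Krt18 (-0.40 and -0.92). These lie in the lowered stretch, and without replicate 2 of sorafenib 48 hours their 48-hour values were -1.87, -0.51 and -0.28. The sum of the 4 stellate and fibroblast markers, nearly all of it Col1a1, was 42160.0 to 44879, 79052 to 85457, 41501 to 43921 and 52032 to 53862 in the same order. Without Col1a1 it was 1714 to 1809, 755 to 1182, 720.4 to 821 and 474 to 502, and Pdgfrb was lower at both times (-0.76 and -0.61 on the log2 scale) and Des at 7 days (-1.14). Of the endothelial markers, Kdr had group means of 48.5, 122, 31.3 and 197 normalized counts and was higher with sorafenib at both times (1.32 and 2.65), while Pecam1 had at most 9 counts and Cdh5 at most 2. Of the immune markers, Ptprc had at most 4 counts and Cd3e none, whereas Cd68 was present in every group. Its level was 60.2 to 76.2, 58.1 to 73.0, 58.7 to 84.4 and 61.9 to 71.5 normalized counts in the same order. Cd68 was called at neither time. The part of these marker shifts in the results below was not tested. Trp53 had 1268 to 4799 counts per library and Myc 4226 to 17797. Both were called lower with sorafenib at 48 hours. At 7 days Trp53 was called higher and Myc lower. Myc had -0.56 at 48 hours and -0.51 at 7 days on the log2 scale. Myc lies in the lowered stretch, and without replicate 2 of sorafenib 48 hours it had -0.42 and -0.51. Pdgfrb lies there too and had -0.64 and -0.61 without that library. Counts over the whole gene do not check the knockout, since the deleted stretch is not given in the sources used here.

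The promoters of 4 members are shown because they differ in a short motif that bears on this pathway. Hypoxia-inducible factors bind sites with the letters ACGTG, and Myc binds CACGTG, which contains them. Counted on both strands in the 250 bases before the start site, ACGTG was present in 16.6% of 32851 promoter windows of all genes and in 19 of the 58 windows listed for 37 members (32.8%). CACGTG was present in 6.02% of all windows and in 6 of the 58 (10.3%). The windows are RefSeq promoters on GRCm38.p6, a different build from the one the reads were aligned to, and Slc2a3 had no entry. The stretches below run 5′ to 3′ on the plus strand, with each ACGTG or its complement in capitals: Ldha at chr7:46845554-46845803 with 5 matches, 4 of them from 2 palindromes CACGTG read on both strands, Slc16a3 at chr11:120948817-120949066 with 2, Pgk1 at chrX:106186850-106187099 with 2 and Pdk1 at chr2:71872974-71873223 with 0. Where 2 start sites are listed, as for Ldha and Pdk1, the first is shown.
Ldha: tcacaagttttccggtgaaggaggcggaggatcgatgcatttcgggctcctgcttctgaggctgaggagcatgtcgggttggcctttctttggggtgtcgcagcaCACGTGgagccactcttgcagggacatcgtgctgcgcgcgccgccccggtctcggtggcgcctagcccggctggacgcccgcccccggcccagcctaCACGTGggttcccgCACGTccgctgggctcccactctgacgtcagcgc
Slc16a3: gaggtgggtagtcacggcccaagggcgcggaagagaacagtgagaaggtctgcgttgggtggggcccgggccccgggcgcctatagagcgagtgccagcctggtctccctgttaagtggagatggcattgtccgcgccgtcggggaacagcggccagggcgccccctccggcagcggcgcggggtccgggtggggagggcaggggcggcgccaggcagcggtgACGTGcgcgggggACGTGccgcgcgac
Pgk1: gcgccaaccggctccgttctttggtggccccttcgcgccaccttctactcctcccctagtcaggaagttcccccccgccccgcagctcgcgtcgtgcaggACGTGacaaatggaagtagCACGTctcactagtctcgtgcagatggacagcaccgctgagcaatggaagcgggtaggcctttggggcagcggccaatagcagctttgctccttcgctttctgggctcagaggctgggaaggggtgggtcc
Pdk1: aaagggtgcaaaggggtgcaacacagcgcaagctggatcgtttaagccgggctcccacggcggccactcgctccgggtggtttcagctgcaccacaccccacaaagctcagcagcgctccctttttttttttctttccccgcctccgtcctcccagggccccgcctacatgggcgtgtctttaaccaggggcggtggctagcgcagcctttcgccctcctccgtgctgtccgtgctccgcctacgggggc
These are matches of letters and not mapped binding sites. The levels of all 4 genes were lower with sorafenib at 48 hours, also that of Pdk1, whose shown window has no match. Of the 15 members with ACGTG in a listed window, Hk2, Pfkfb2, Pfkfb3 and Pdhb were called higher at 48 hours and the others lower. Over all 37 members tested, 24 were called lower and 11 higher, and over all genes 27% and 26.6%. A relation between the motif and the response was not tested.

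The plot of member levels in every library shows the main pattern. Vehicle libraries of 48 hours held the highest levels of most of the pathway, and the other 3 groups lay below them. The mean of the DMSO 48-hour group was the highest of the 4 groups for 21 of the 37 members tested, against 31.1% of all tested genes, and for 19 of these members all 4 of its libraries lay above the other 12 (13.2% of all genes). The 38th member, Pklr, the liver and red-cell pyruvate kinase, had 3 counts in all and was not tested. In bulk RNA, a lower level in every cell and fewer cells that express the gene cannot be told apart.

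**Figure D1:**
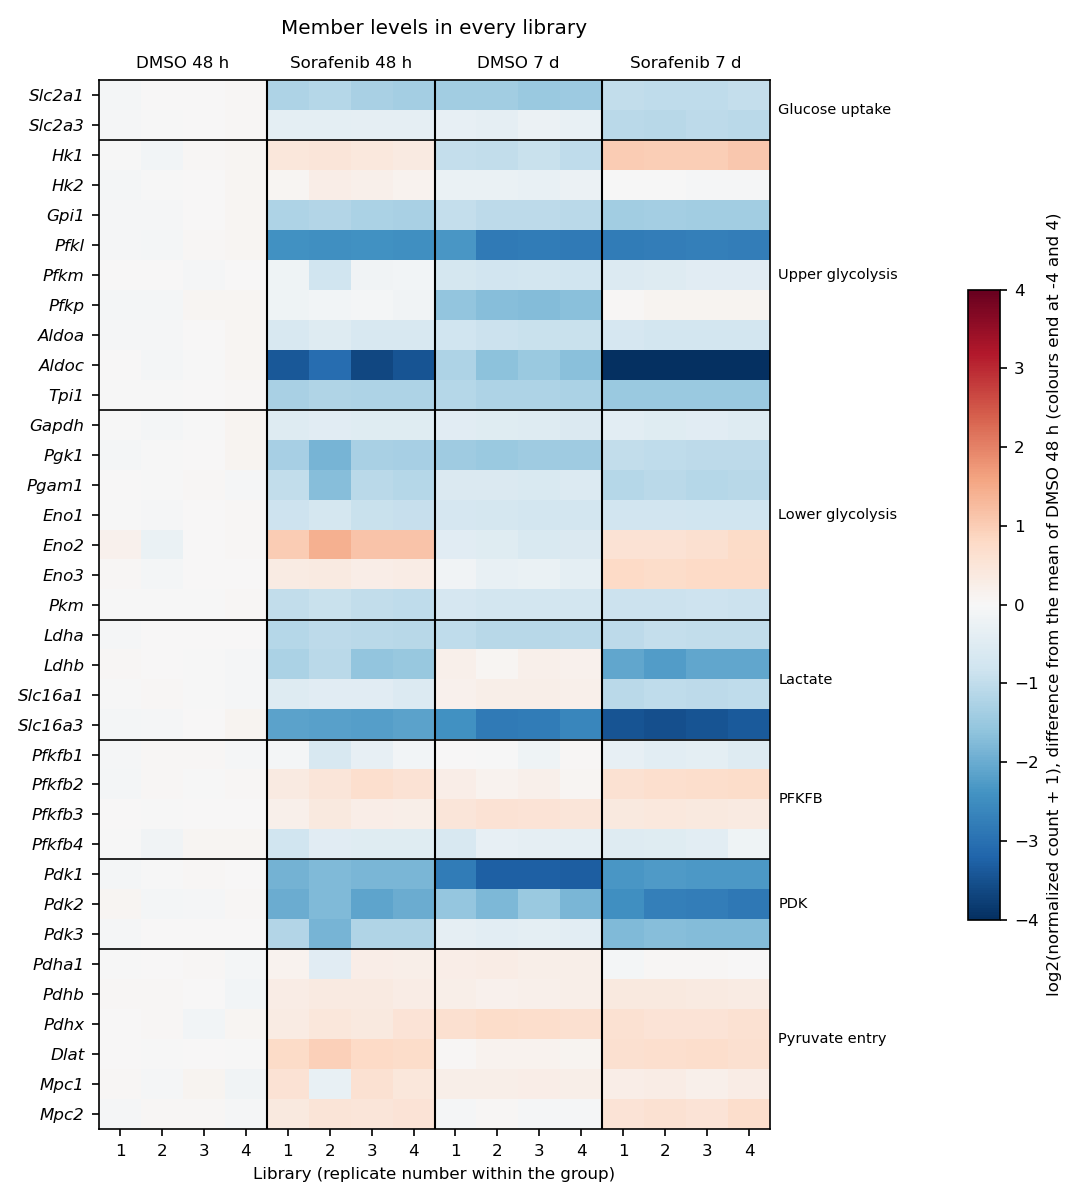
Levels of 35 members in the 16 libraries (columns, by group and replicate number), as the difference of log2(normalized count + 1) from the mean of the DMSO 48-hour libraries. Blue is lower and red is higher than in DMSO at 48 hours, colours end at -4 and 4, and Pklr, Slc2a2 and Pdk4, with means under 20 normalized counts, are left out. The darker cells of sorafenib 48-hour replicate 2 are genes of the lowered stretch.

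At 48 hours, sorafenib lowered 24 and raised 11 of the 37 members tested at an FDR under 0.05, and 13 fell by at least 1 on the log2 scale. Over all genes, 53.6% were called in this comparison, 27% lower and 26.6% higher, with 8.98% lower and 8.69% higher by at least 1 (17.7% in all). Treated and vehicle libraries did not overlap for 32 members, against 48% of all genes. The median log2 fold change was -0.53 over the members and -0.051 over all genes. Members are abundant genes, and of all genes averaging 100 normalized counts or more 75.5% were called, 34.9% lower and 40.6% higher. Lower calls comprised all 4 lactate genes, all 4 pyruvate dehydrogenase kinases and 12 of the 16 tested genes of the glycolytic steps. Of the 6 pyruvate entry genes, 5 were called, all of them higher.

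At 7 days, 27 members were called, 14 higher and 13 lower, and the background was 55.9% called, 28.5% higher and 27.4% lower. Among abundant genes it was 75.7%, with 35.5% higher and 40.2% lower. Changes of at least 1 on the log2 scale were called for 4 members higher and 5 lower, where all genes had 11.9% and 8.25% (20.2% together). The libraries of the 2 treatments did not overlap for 31 members, against 56.8% of all genes. Their median log2 fold change was 0.02, as over all genes (0.02). The 48-hour and 7-day comparisons have no library in common. Members called lower at both time points numbered 12 (17.7% of all genes), and members called higher at both numbered 8 (18.3% of all genes). Another 6 members, Slc2a1, Pfkp, Aldoa, Pgk1, Ldha and Pdk1, were lower at 48 hours and higher at 7 days, a pair of calls made for 1.62% of all genes. Pfkfb3 was the 1 member called higher at 48 hours and lower at 7 days, and opposite calls of either order were made for 4.73% of all genes.

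**Figure D2:**
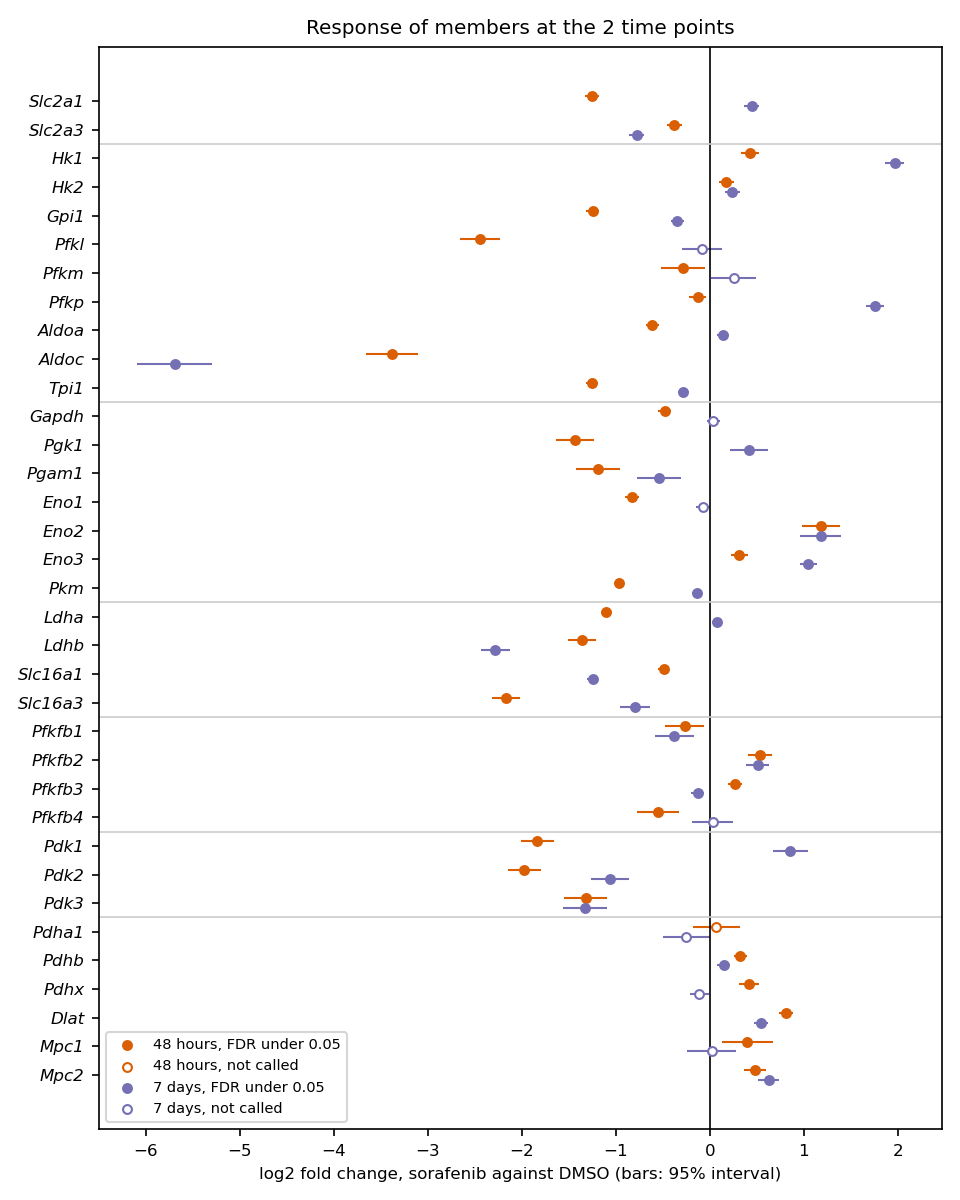
Log2 fold change of sorafenib against DMSO at 48 hours (orange) and 7 days (purple) for 35 members, with 95% intervals from the fit. Filled points passed an FDR under 0.05. Most orange points lie left of 0 from Slc2a1 to Pdk3, while purple points lie on both sides, from -5.69 for Aldoc to 1.97 for Hk1.

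Among glucose transporters, Slc2a1, which encodes the widely expressed carrier GLUT1 (chr4:118965908-118996365, GRCm39), responded in opposite directions at the time points. Slc2a1 had 5753, 6166, 6177 and 6331 normalized counts in the libraries with DMSO for 48 hours and 2606, 2752, 2506 and 2402 with sorafenib. At 7 days Slc2a1 had 2347, 2323, 2162 and 2212 with DMSO and 3109, 3048, 3039 and 3123 with sorafenib. No library of one treatment overlapped the other at either time, with sorafenib below DMSO at 48 hours and above it at 7 days. Values after ± are SDs for counts (n = 4 libraries) and standard errors for log2 fold changes, and FDR is the Benjamini-Hochberg adjusted p of edgeR's quasi-likelihood test. Slc2a1 changed on the log2 scale by -1.25 ± 0.038 (FDR = 9.58e-20) at 48 hours and 0.45 ± 0.038 (FDR = 1.45e-10) at 7 days. Slc2a3, encoding the high-affinity carrier GLUT3, was lower at both times, with -0.38 (FDR = 2.36e-09) and -0.78 (FDR = 2.02e-15). Slc2a2, the carrier GLUT2 of hepatocytes, had 0 to 3 counts in every library, and no difference was detectable at this depth.

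Hexokinases, which trap glucose as glucose phosphate, were among the members that rose. Hk1 had 982, 921, 1044 and 1069 normalized counts in the libraries with DMSO for 48 hours and 1358, 1406, 1353 and 1282 with sorafenib. At 7 days Hk1 had 516, 508, 541 and 499.9 with DMSO and 2029, 1968, 1983 and 2101 with sorafenib. All sorafenib libraries lay above all DMSO libraries of the same time, and the 7-day sorafenib libraries were the highest of all 16. The log2 fold change of Hk1 (chr10:62104621-62215687) was 0.43 ± 0.045 (FDR = 9.19e-09) at 48 hours and 1.97 ± 0.047 (FDR = 4.98e-22) at 7 days, a 3.91-fold higher level. Hk2, the isozyme of insulin-responsive tissues and many tumors, changed less, by 0.18 (FDR = 0.000313) and 0.24 (FDR = 5.11e-06) on the log2 scale.

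Gpi1, which converts glucose phosphate to fructose phosphate (chr7:33900755-33929780), fell at both time points. Gpi1 had 23990.2, 24032, 25132 and 26212 normalized counts in the libraries with DMSO for 48 hours and 10477, 11022, 10249 and 10123 with sorafenib. At 7 days Gpi1 had 12865, 12041, 11931 and 11655 with DMSO and 9508, 9578, 9520.2 and 9551 with sorafenib. Treated libraries were below the vehicle libraries without overlap, by a wider margin at 48 hours. Its log2 fold changes were -1.25 ± 0.033 (FDR = 4.14e-21) and then -0.35 ± 0.032 (FDR = 8.2e-10).

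The phosphofructokinases, the committed step of glycolysis, split by isozyme. Pfkl had 9892, 9819.7, 10626 and 10873 normalized counts in the libraries with DMSO for 48 hours and 1904, 1867, 1931 and 1859 with sorafenib. At 7 days Pfkl had 2062, 1440.0, 1475 and 1447 with DMSO and 1467, 1520.3, 1559 and 1502 with sorafenib. The DMSO 48-hour libraries of this liver-type isozyme (chr10:77818084-77845922) stood above the other 12, and at 7 days the groups overlapped. Pfkl was 5.45-fold lower with sorafenib at 48 hours, with a log2 fold change of -2.45 ± 0.097 (FDR = 4.3e-11), while the value at 7 days, -0.083 ± 0.096 (FDR = 0.498), did not pass the test. Without DMSO 7-day replicate 1, the highest library of its group, the 7-day value was 0.057 (FDR = 0.21).

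Pfkp had 1444, 1429, 1624 and 1607 normalized counts in the libraries with DMSO for 48 hours and 1353, 1414, 1439 and 1382 with sorafenib. At 7 days Pfkp had 509, 469, 457 and 479.5 with DMSO and 1566, 1651, 1626 and 1628 with sorafenib. At 48 hours the groups of Pfkp, the platelet-type isozyme (chr13:6629798-6698970), overlapped, and at 7 days every sorafenib library was above every DMSO library. The log2 fold change was -0.13 ± 0.044 (FDR = 0.0184) at 48 hours and 1.76 ± 0.048 (FDR = 6.69e-21) at 7 days, a 3.38-fold higher level. Exons of Pitrm1 on the opposite strand cover 17.5% of the exon bases of Pfkp, and the strand setting of the counting is not given in the sources used here. Pitrm1 had a median of 7244 counts per library. Pfkm, the muscle-type isozyme, lies in the lowered stretch. Pfkm had a log2 fold change of -0.28 (FDR = 0.0425) with all libraries at 48 hours and -0.15 (FDR = 3.99e-05) without replicate 2 of sorafenib 48 hours. At 7 days it was 0.25 (FDR = 0.0647), and the rise there was called without that library (0.26, FDR = 1.66e-12), by DESeq2 (0.25, FDR = 0.0294), by limma (0.26, FDR = 1.73e-05), with total counts (0.28, FDR = 0.0349), with at least 10 counts in every library (0.28, FDR = 0.0158) and with the 7-day libraries alone (0.25, FDR = 5.4e-12).

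Aldoc, the brain-type aldolase (chr11:78213619-78218889), had the largest decrease of the members at both time points. Aldoc had 4529.6, 4217, 4444 and 4779 normalized counts in the libraries with DMSO for 48 hours and 427, 541, 359.8 and 412 with sorafenib. At 7 days Aldoc had 1907, 1451, 1612 and 1421 with DMSO and 24.7, 40.6, 34.1 and 20.7 with sorafenib. Treated libraries were far below vehicle libraries at each time, and vehicle libraries were lower at 7 days than at 48 hours. Aldoc was 10.4-fold lower at 48 hours, a log2 fold change of -3.39 ± 0.13 (FDR = 2.44e-11), and 51.7-fold lower at 7 days, -5.69 ± 0.18 (FDR = 4.11e-12).

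Aldoa had 38182, 38292, 39848 and 42275 normalized counts in the libraries with DMSO for 48 hours and 25533, 27455, 25648 and 25166 with sorafenib. At 7 days Aldoa had 22931, 21939, 21139 and 21308 with DMSO and 24641, 24044, 24041 and 23655 with sorafenib. Aldoa, the ubiquitous aldolase (chr7:126393822-126399923), was below DMSO in every sorafenib library at 48 hours and above it in every sorafenib library at 7 days. The log2 fold changes were small beside those of Aldoc, -0.61 ± 0.033 (FDR = 1.87e-14) and 0.14 ± 0.033 (FDR = 0.000576).

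Tpi1, which interconverts the triose products of aldolase (chr6:124787549-124791273), fell at both time points. Tpi1 had 29207, 29201, 29815 and 30894 normalized counts in the libraries with DMSO for 48 hours and 12035, 12811, 12579 and 12583 with sorafenib. At 7 days Tpi1 had 13643, 12689, 12666 and 12397 with DMSO and 10557, 10633, 10562 and 10589.7 with sorafenib. The treated libraries were lower without overlap. Tpi1 had a log2 fold change of -1.25 ± 0.029 (FDR = 2.33e-22) at 48 hours and -0.28 ± 0.028 (FDR = 3.48e-09) at 7 days.

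In lower glycolysis, Pgk1, the first step that yields ATP (chrX:105230706-105247305), fell and then rose. Pgk1 had 7627, 7928, 8093 and 8644 normalized counts in the libraries with DMSO for 48 hours and 3216, 2233, 3268 and 3213 with sorafenib. At 7 days Pgk1 had 3026, 2911, 3004 and 2982 with DMSO and 4057, 4008, 3928 and 3900.4 with sorafenib. Sorafenib libraries lay below DMSO at 48 hours and above it at 7 days, and replicate 2 at 48 hours was the lowest of the 16. On the log2 scale the change was -1.43 ± 0.094 (FDR = 1.22e-08) at 48 hours, or -1.32 (FDR = 2.41e-88) without that library, and 0.41 ± 0.092 (FDR = 0.00171) at 7 days.

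Pgam1 had 4244, 4165, 4381 and 4136 normalized counts in the libraries with DMSO for 48 hours and 2161, 1293, 2013 and 1935 with sorafenib. At 7 days Pgam1 had 2811, 2827, 2788 and 2891 with DMSO and 1935, 1994, 1903 and 1971 with sorafenib. Pgam1, phosphoglycerate mutase (chr19:41900341-41907104), was lower in every sorafenib library at both times, with replicate 2 at 48 hours again the lowest. Pgam1 had -1.19 ± 0.11 (FDR = 4.98e-07) at 48 hours, -1.06 (FDR = 2.16e-71) without that library, and -0.54 ± 0.11 (FDR = 0.00078) at 7 days on the log2 scale. Gapdh, often used as a reference gene, fell at 48 hours, with -0.48 (FDR = 1.62e-12) on the log2 scale, and had 0.04 (FDR = 0.308) at 7 days. Exons of Iffo1 on the opposite strand cover 81.5% of the exon bases of Gapdh, but Iffo1 had a median of 164 counts per library. Gapdh, Pgk1, Pgam1, Ldha, Aldoa, Tpi1, Eno1 and Pkm have processed copies in the genome, and how reads were split with these was not tested.

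The enolases, which make phosphoenolpyruvate, moved apart. Eno1, the common isozyme, fell at 48 hours (-0.83, FDR = 2.37e-15) and had -0.073 (FDR = 0.082) at 7 days, a value called lower without replicate 2 of sorafenib 48 hours (-0.073, FDR = 0.00782) and by limma (-0.071, FDR = 0.00412). Eno2 had 155, 114, 139 and 142 normalized counts in the libraries with DMSO for 48 hours and 278, 366, 306 and 303 with sorafenib. At 7 days Eno2 had 99.5, 97.7, 89.8 and 90.9 with DMSO and 204, 204, 215 and 234 with sorafenib. Every treated library held more Eno2, the neuronal isozyme (chr6:124736247-124746636), than every vehicle library. Eno2 rose by 1.19 ± 0.098 (FDR = 7.18e-11) and 1.18 ± 0.10 (FDR = 2.85e-10) on the log2 scale.

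Eno3 had 1149.5, 1047, 1114 and 1104 normalized counts in the libraries with DMSO for 48 hours and 1382, 1427, 1328 and 1365 with sorafenib. At 7 days Eno3 had 998, 890.0, 926 and 843 with DMSO and 1902, 1831, 1915 and 1918 with sorafenib. Eno3, the muscle isozyme (chr11:70546593-70553340), was also higher without overlap at both times, with 0.32 ± 0.045 (FDR = 1.01e-06) and then 1.05 ± 0.044 (FDR = 7.49e-17). Pkm, which encodes the pyruvate kinases M1 and M2 and was the member with the most counts, fell at both times, with -0.96 (FDR = 2.9e-21) at 48 hours and -0.13 (FDR = 4.51e-05) at 7 days on the log2 scale. The count table does not separate the splice forms of Pkm.

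All 4 genes of lactate conversion and export were lower at 48 hours. Ldha had 40174, 41633, 41551 and 41262 normalized counts in the libraries with DMSO for 48 hours and 18792, 19779, 19303 and 18965 with sorafenib. At 7 days Ldha had 20522, 19175, 19054 and 19470.1 with DMSO and 19877, 21135, 20944 and 20656 with sorafenib. Ldha (chr7:46490899-46505061), the lactate dehydrogenase subunit most abundant in glycolytic tissue, was below DMSO in every sorafenib library at 48 hours, whereas the groups overlapped at 7 days. The log2 fold change was -1.10 ± 0.027 (FDR = 8.55e-22) at 48 hours, a 2.14-fold lower level. The rise at 7 days was 0.079 ± 0.027 (FDR = 0.0136) and was no longer called when DMSO 7-day replicate 3 or sorafenib 7-day replicate 2 was left out.

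Ldhb had 1016, 1002, 973 and 957 normalized counts in the libraries with DMSO for 48 hours and 414, 467, 331 and 348 with sorafenib. At 7 days Ldhb had 1145, 1032, 1128 and 1103 with DMSO and 232, 209.5, 235 and 231 with sorafenib. Ldhb (chr6:142435672-142454586), the subunit typical of heart, was lower in all treated libraries, and more so at 7 days. On the log2 scale the change was -1.36 ± 0.072 (FDR = 1.03e-14) at 48 hours and -2.28 ± 0.074 (FDR = 3.26e-19) at 7 days, a 4.86-fold lower level.

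Of the lactate transporters, Slc16a1 encodes MCT1 (chr3:104545811-104565780) and Slc16a3 encodes MCT4 (chr11:120838846-120851694), the low-affinity exporter of glycolytic cells. Slc16a1 had 9620.3, 10035, 9549 and 9439.7 normalized counts in the libraries with DMSO for 48 hours and 6745, 7096, 7046 and 6596 with sorafenib. At 7 days Slc16a1 had 10800.3, 11359, 11369 and 11078 with DMSO and 4604, 4784, 4670.5 and 4751 with sorafenib. Sorafenib libraries were lower at each time, with a log2 fold change of -0.49 ± 0.029 (FDR = 6.31e-14) and -1.25 ± 0.029 (FDR = 2.88e-22). Slc16a3 had 4990.0, 5059, 5320.1 and 5679 normalized counts in the libraries with DMSO for 48 hours and 1193, 1176, 1133 and 1181 with sorafenib. At 7 days Slc16a3 had 985, 746, 760.5 and 852 with DMSO and 479, 456, 476 and 507 with sorafenib. For Slc16a3 the order of the groups was DMSO 48 hours, sorafenib 48 hours, DMSO 7 days and sorafenib 7 days, with no overlap between neighbours. Slc16a3 had a log2 fold change of -2.17 ± 0.069 (FDR = 4.54e-14) at 48 hours, larger in size than at 7 days, -0.80 ± 0.075 (FDR = 9.54e-08). Exons of Csnk1d on the opposite strand, with a median of 5722 counts per library, cover 17.7% of the exon bases of Slc16a3.

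**Figure D3:**
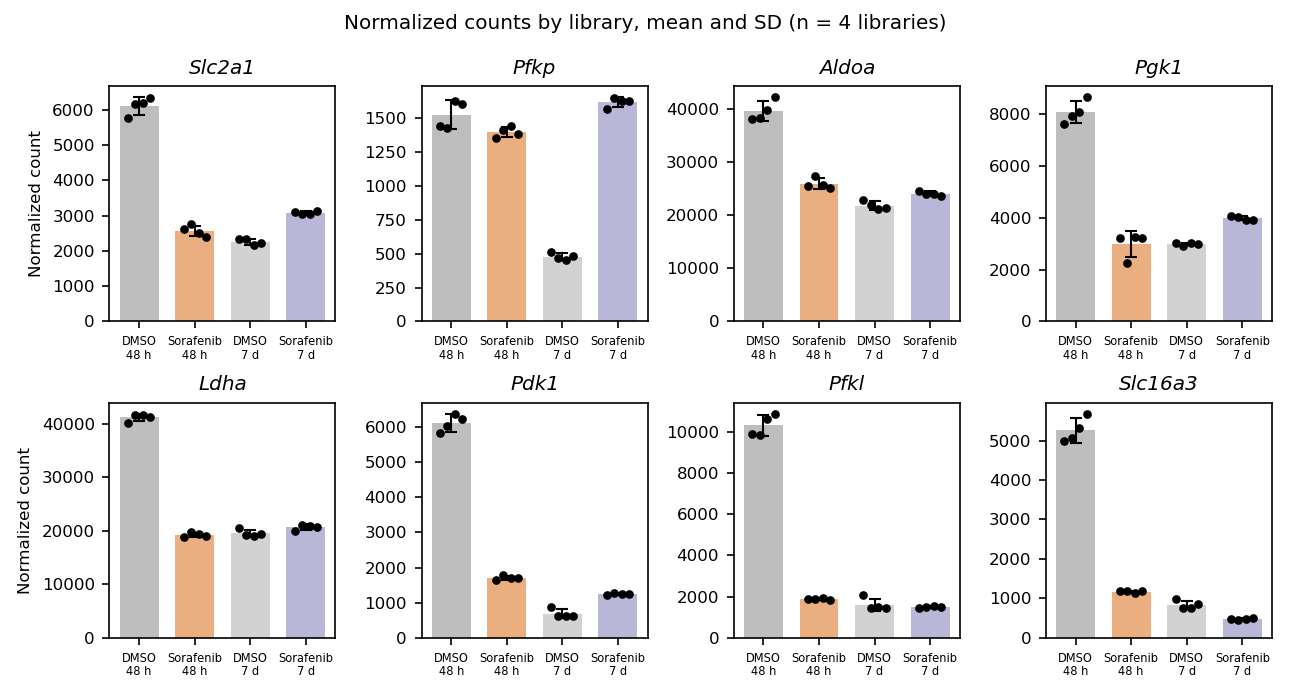
Normalized counts of 8 members by group. Points are libraries, bars are means and error bars are SDs (n = 4), and each axis starts at 0. DMSO at 48 hours is highest in all panels but that of Pfkp, where sorafenib at 7 days has a mean of 1618 against 1526.

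The PFKFB enzymes make and break a regulatory form of fructose bisphosphate, the main activator of phosphofructokinase, and showed small and mixed differences. Pfkfb2 rose at both times, by 0.53 (FDR = 4.14e-08) and 0.51 (FDR = 4.2e-08) on the log2 scale. Pfkfb3 had 1635, 1588, 1631 and 1629.7 normalized counts in the libraries with DMSO for 48 hours and 1876, 2105, 1929 and 1915 with sorafenib. At 7 days Pfkfb3 had 2276, 2438, 2352 and 2279.8 with DMSO and 2137, 2170.1, 2145 and 2099 with sorafenib. Sorafenib libraries of Pfkfb3 (chr2:11476244-11558888), the isozyme with the highest kinase activity, were above DMSO at 48 hours and below it at 7 days. The log2 fold changes were 0.27 ± 0.036 (FDR = 3.97e-07) and -0.13 ± 0.035 (FDR = 0.00283). Pfkfb1 had -0.27 (FDR = 0.0288) at 48 hours and -0.38 (FDR = 0.00212) at 7 days, and its 48-hour value without sorafenib replicate 2 was -0.18 (FDR = 0.136), which did not pass the test. Pfkfb4 fell at 48 hours (-0.55, FDR = 9.58e-05) and had 0.032 (FDR = 0.818) at 7 days.

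The pyruvate dehydrogenase kinases all fell at 48 hours. Pdk1 had 5823, 6012, 6375 and 6235 normalized counts in the libraries with DMSO for 48 hours and 1643, 1789, 1707 and 1712 with sorafenib. At 7 days Pdk1 had 876, 629.6, 634 and 621 with DMSO and 1218, 1270.2, 1249 and 1241 with sorafenib. Pdk1 (chr2:71703488-71734202) had separate groups in the order DMSO 48 hours, sorafenib 48 hours, sorafenib 7 days and DMSO 7 days. The log2 fold change was -1.84 ± 0.081 (FDR = 6.38e-11) at 48 hours, a 3.57-fold lower level, and 0.86 ± 0.086 (FDR = 7.98e-07) at 7 days, a 1.81-fold higher level.

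Pdk2 had 852, 772, 782 and 827 normalized counts in the libraries with DMSO for 48 hours and 203, 237, 186 and 202 with sorafenib. At 7 days Pdk2 had 277, 233, 290.0 and 229 with DMSO and 145, 120.2, 119 and 110.2 with sorafenib. Pdk2 (chr11:94914929-94932242) was lower in every treated library of both times, with a log2 fold change of -1.98 ± 0.085 (FDR = 1.29e-16) and -1.06 ± 0.097 (FDR = 5.05e-10). Pdk3 had 3479, 3671, 3656 and 3603 normalized counts in the libraries with DMSO for 48 hours and 1601, 997, 1579.9 and 1560.5 with sorafenib. At 7 days Pdk3 had 2835, 2671, 2774 and 2671 with DMSO and 1064, 1108, 1084 and 1093 with sorafenib. Pdk3 (chrX:92789513-92876389) was lower by about as much at either time, -1.32 ± 0.11 (FDR = 1.27e-07) and -1.33 ± 0.11 (FDR = 1.21e-07). Without replicate 2 of sorafenib 48 hours its 48-hour value was -1.19 (FDR = 1.24e-75). Pdk4 was scarce, with group means of 20.9, 10.6, 14.6 and 9.24 normalized counts in the order DMSO and sorafenib at 48 hours and DMSO and sorafenib at 7 days, and fell at 48 hours (-0.99, FDR = 0.0116), with -0.66 (FDR = 0.0935) at 7 days. Its 48-hour call was lost without replicate 3 of sorafenib 48 hours (-0.81, FDR = 0.0537).

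Against the kinases, the pyruvate dehydrogenase complex and the mitochondrial pyruvate carrier held no member called lower at either time with all libraries, though Pdha1 and Pdhx were both called lower at 7 days without replicate 2 of sorafenib 48 hours. Dlat, the acetyltransferase core of the complex, rose from 2266 ± 21.7 to 3979 ± 267 normalized counts at 48 hours (0.81, FDR = 4.75e-16) and from 2446 ± 75.3 to 3573 ± 75.8 at 7 days (0.55, FDR = 1.35e-12). Pdhb, the beta subunit of the dehydrogenase, rose by 0.33 (FDR = 1.1e-08) and 0.15 (FDR = 0.000693) on the log2 scale, and Mpc2, a carrier subunit, by 0.48 (FDR = 2.85e-08) and 0.63 (FDR = 1.4e-10). Pdhx, which binds the third enzyme of the complex, rose at 48 hours (0.42, FDR = 1.17e-07) and had -0.11 (FDR = 0.0607) at 7 days, where it was called lower without replicate 2 of sorafenib 48 hours (-0.11, FDR = 0.019), by DESeq2 (-0.11, FDR = 0.048), by limma (-0.11, FDR = 0.0204) and with the 7-day libraries alone (-0.12, FDR = 0.00583).

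Exons of Pxk on the opposite strand (a median of 1172 counts per library) cover 22.2% of the exon bases of Pdhb. Those of Map3k15 (199.5 counts) cover 21.1% of the exon bases of Pdha1. Pdha1 and Mpc1, the alpha subunit and the other carrier subunit, both lie in the lowered stretch. Pdha1 had 0.072 (FDR = 0.637) at 48 hours, 0.21 (FDR = 9.36e-11) without replicate 2 of sorafenib 48 hours, and -0.25 (FDR = 0.0853) at 7 days, a decrease called without that library (-0.25, FDR = 2.47e-15), by DESeq2 (-0.25, FDR = 0.0423), by limma (-0.24, FDR = 1.98e-05) and with the 7-day libraries alone (-0.25, FDR = 1.29e-18). Mpc1 had 0.40 (FDR = 0.0135) at 48 hours, 0.56 (FDR = 7.93e-11) without that library, and 0.02 (FDR = 0.904) at 7 days. Without that library, 35 members were called at 48 hours, 23 lower and 12 higher, and 31 at 7 days, 16 lower and 15 higher. Over all genes, 11626 of 20353 were called at 48 hours in that fit, 5807 lower and 5819 higher. At 7 days 12618 were called, 6237 lower and 6381 higher. With all libraries, 10954 and 11432 of 20444 genes were called.

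Whether the response itself differed between the time points was tested as the interaction, the 7-day log2 fold change minus the 48-hour one. It passed for 27 members, 19 with a higher and 8 with a lower value at 7 days, against 36.3% of all genes, 15% higher and 21.3% lower. Among abundant genes the shares were 55.3%, 18.4% and 36.8%. Values of at least 1 in size were called for 8 members higher and 1 lower, against 5.19% and 4.22% of all genes (9.41% together). With total counts as the only scaling the split over all genes turned to 19.6% higher and 16% lower, and the members had 21 higher and 7 lower. Pdk1 had the largest interaction, 2.69 ± 0.12 (FDR = 2.22e-10), followed by Pfkl with 2.36 ± 0.13 (FDR = 8.1e-09). Pfkp had 1.89 (FDR = 9.54e-18), Pgk1 1.85 (FDR = 8.29e-08) and Slc2a1 1.70 (FDR = 1.95e-18). Hk1, which rose at both times, rose more at 7 days (1.54, FDR = 5.34e-16). Aldoc went the other way with -2.31 ± 0.26 (FDR = 7.41e-06), as did Ldhb with -0.92 (FDR = 6.95e-08) and Slc16a1 with -0.75 (FDR = 5.95e-14). The other 10 members tested, Slc2a2, Hk2, Eno2, Pfkfb1, Pfkfb2, Pdk3, Pdk4, Pdha1, Mpc1 and Mpc2, did not pass. Without replicate 2 of sorafenib 48 hours 31 members passed, 20 higher and 11 lower, among them Pdk3 with -0.14 (FDR = 0.00739), Pdha1 with -0.46 (FDR = 3.34e-20) and Mpc1 with -0.54 (FDR = 3.55e-06). Over all genes 8860 of 20353 passed in that fit, 3739 higher and 5121 lower.

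The same genes also differed between the vehicle groups, with which both sorafenib comparisons share libraries. From DMSO at 48 hours to DMSO at 7 days, 31 members were called, 24 lower and 7 higher, and 11 were lower by at least 1 on the log2 scale. Over all genes 48.7% were called, 25.1% lower and 23.5% higher, with 6.58% lower and 4.18% higher by at least 1 (10.8% together). Among abundant genes 71% were called, 33.2% lower and 37.8% higher. Libraries of the 2 vehicle groups did not overlap for 33 members, against 50.8% of all genes. The median log2 difference was -0.51 over the members and -0.011 over all genes. Pdk1 fell from 6111 ± 243 to 690.3 ± 124 normalized counts (-3.15, FDR = 4.95e-13), Pfkl from 10303 ± 527 to 1606 ± 304 (-2.68, FDR = 2.79e-11) and Slc16a3 from 5262 ± 312 to 836 ± 109.9 (-2.66, FDR = 9.6e-15). Smaller decreases were those of Pfkp (-1.67, FDR = 1.85e-19), Pdk2 (-1.65, FDR = 3.83e-15), Aldoc (-1.49, FDR = 6.39e-08), Pgk1 (-1.44, FDR = 1.58e-08), Slc2a1 (-1.43, FDR = 5.5e-20) and Ldha (-1.07, FDR = 1.72e-20). Pfkfb3 rose (0.53, FDR = 2.41e-12), as did Pdhx (0.69, FDR = 1.33e-11) and Slc16a1 (0.21, FDR = 7.94e-07). Time in culture cannot be told apart from other differences between the 2 harvests, such as cell density or medium, for which the labels give no values.

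Set side by side, the group means show the levels behind the fold changes. For Ldha they were 41155 ± 673 with DMSO and 19209.7 ± 435 with sorafenib at 48 hours, and 19555 ± 667 and 20653 ± 553 at 7 days. For Pgk1 they were 8073 ± 427 and 2983 ± 500.1, then 2981 ± 50.0 and 3973 ± 72.2. For Gapdh they were 44004 ± 2449 and 31531 ± 716, then 30997 ± 929.7 and 31868 ± 907. In each of these genes the DMSO 48-hour mean stood above 3 others that lay closer together.

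Isozyme use was compared as the share of each isozyme in the summed counts per kilobase of its family, a level that does not depend on library size. A share was tested for 1 isozyme in each of 10 families at both time points, by exact permutation of the 8 libraries, two-sided. The smallest p that this design allows is 0.0286, and Benjamini-Hochberg adjustment ran over the 20 tests. Of these, 16 reached that exact permutation p (adjusted p = 0.0357).

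The largest shift was in phosphofructokinase. Pfkl made up 72.1% ± 0.618 of the family with DMSO at 48 hours and 35.8% ± 2.82 with sorafenib, while Pfkp went from 10.2% ± 0.302 to 25.2% ± 2.42 and Pfkm from 17.8% ± 0.89 to 39.0% ± 5.2. At 7 days Pfkl was 44.6% ± 3.69 with DMSO and 31.1% ± 0.376 with sorafenib, and Pfkp 12.8% ± 0.769 and 31.7% ± 0.362. The Pfkl shares of treated and vehicle libraries did not overlap at either time. Pfkm lies in the lowered stretch, and these 48-hour shares include its lowered counts in replicate 2 of sorafenib 48 hours. The Pfkm share ran from 31.2% to 42.4% in that group. With 1 library left out at a time, the 48-hour difference of Pfkl was -37.6 to -35.5 percentage points. The liver-type isozyme thus lost share under sorafenib at both time points, and the DMSO share itself was lower at 7 days.

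Hexokinase turned toward Hk1, whose share was 34.7% ± 1.29 with DMSO and 38.8% ± 1.28 with sorafenib at 48 hours, and 24.8% ± 0.939 and 52.2% ± 0.991 at 7 days. By counts not divided by length, Hk1 had 22.6%, 25.8%, 15.4% and 37.5% in the same order. Among glucose transporters, Slc2a1 had 78.6% ± 0.372 with DMSO and 66.8% ± 1.44 with sorafenib at 48 hours, against 62.7% ± 1.6 and 79.7% ± 0.436 at 7 days, so that its share fell at the first time and rose at the second. The rest of that family was Slc2a3. Aldoa, already dominant at 94.2% ± 0.179 and 96.2% ± 0.41 with DMSO, rose to 99.1% ± 0.124 and 99.9% ± 0.0203 as Aldoc fell. Eno1 dropped from 96.3% ± 0.167 to 91.7% ± 0.314 at 48 hours and from 95.1% ± 0.254 to 89.8% ± 0.283 at 7 days, mostly to Eno3, which reached 9.5% ± 0.247 with sorafenib at 7 days.

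Ldha was 97.6% ± 0.0929 of lactate dehydrogenase with DMSO and 97.9% ± 0.303 with sorafenib at 48 hours, a difference that did not pass the exact permutation test (p = 0.0857, adjusted p = 0.101), and 94.5% ± 0.207 and 98.9% ± 0.0765 at 7 days. The share of Slc16a1 in the transporter pair rose from 65.2% ± 1.8 to 85.7% ± 0.631 at 48 hours and fell from 93.2% ± 0.997 to 90.9% ± 0.39 at 7 days. Pdk1 went from 38.9% ± 0.76 of the kinases to 32.8% ± 4.76 at 48 hours (exact permutation p = 0.143, adjusted p = 0.159) and from 9.6% ± 1.29 to 32.2% ± 0.307 at 7 days. Pdk3 and Pfkfb1 lie in the lowered stretch, and the 48-hour shares of their families include replicate 2 of sorafenib 48 hours. The Pdk1 share ran from 29.6% to 39.9% in that group. With 1 library left out at a time, the 48-hour difference was -8.44 to -5.0 percentage points for Pdk1 and -5.4 to -3.74 for Pfkfb1. Pdk3 held the largest share of the kinases in every group, from 49.1% ± 0.725 with DMSO at 48 hours to 81.9% ± 1.45 with DMSO at 7 days, with the length of 1 canonical transcript per gene. That order depended on the length used: with the union of exons Pdk1 had 58.9% and Pdk3 34.4% with DMSO at 48 hours, 51.9% and 42.5% with sorafenib at 48 hours and 51.1% and 44.2% with sorafenib at 7 days, and Pdk3 led with DMSO at 7 days only (74.7%), as it did by counts not divided by length. The share of Pfkfb1 fell from 16.1% ± 0.528 to 11.5% ± 2.18 and from 12.8% ± 0.982 to 9.61% ± 0.603, and Pkm was the pyruvate kinase in every library, with 3 counts of Pklr in all. Some differences in share depended on the length. In percentage points at 48 hours and 7 days, that of Aldoa was 4.89 and 3.74 but 9.3 and 7.31 with the union of exons, that of Slc16a1 20.5 and -2.23 but 13.2 and -1.19 with the union, and that of Pfkfb1 -4.63 and -3.22 but -2.17 and -1.25 by counts not divided by length.

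**Figure D4:**
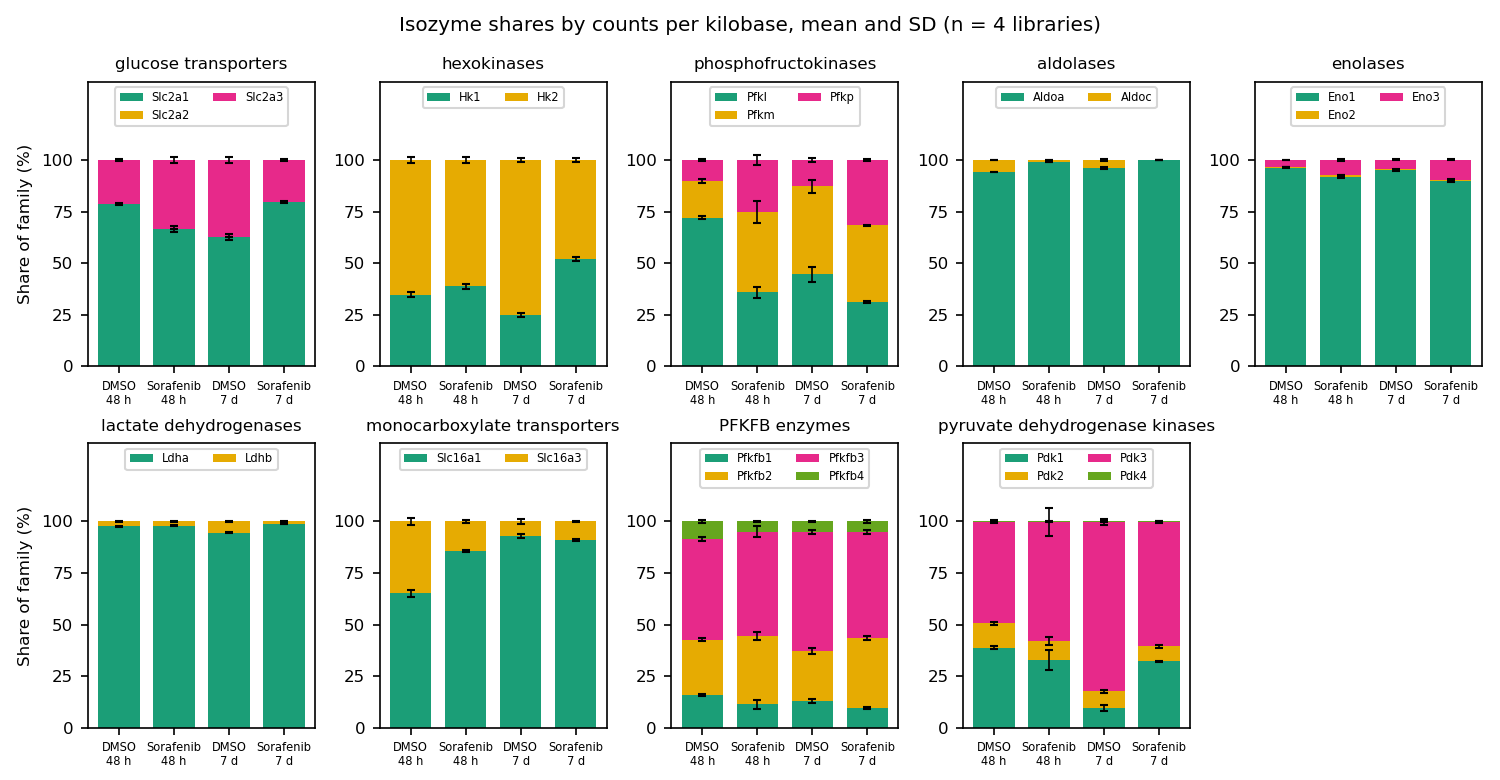
Share of each isozyme in its family by counts per kilobase of exon, stacked to 100% per group. Bars are means of 4 libraries and error bars are SDs. The share of Pfkl is 72.1% with DMSO and 35.8% with sorafenib at 48 hours, and 44.6% and 31.1% at 7 days. That of Hk1 is largest with sorafenib at 7 days.

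Other genes of the pathway were read from 6 lists. Of the 21 other isozymes, 15 were tested and most were scarce, with 1 higher and 5 lower at 48 hours and 3 higher and 1 lower at 7 days. Slc2a8, an intracellular glucose transporter, had -0.47 (FDR = 2.44e-05) at 48 hours and 0.54 (FDR = 1.79e-05) at 7 days. Among 15 partners and regulators, 6 were higher and 6 lower at 48 hours and 4 higher and 7 lower at 7 days. Pdp2, a phosphatase that opposes the pyruvate dehydrogenase kinases, fell at both times, with -1.09 (FDR = 6.1e-14) and -1.86 (FDR = 1.72e-18). Txnip and Arrdc4, arrestin-family genes that respond to glucose, had -1.57 (FDR = 5.09e-20) and -1.68 (FDR = 1.74e-11) at 48 hours, then -0.81 (FDR = 2.53e-14) and -0.47 (FDR = 0.000532).

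Of 4 tested genes of gluconeogenesis and pyruvate carboxylation, 2 were higher and 0 lower at 48 hours, and all 4 were higher at 7 days. Pck2, the mitochondrial phosphoenolpyruvate carboxykinase, rose by 1.85 (FDR = 1.11e-23) and 0.94 (FDR = 8.25e-18), and pyruvate carboxylase, Pcx, by 0.32 (FDR = 0.0267) and 0.77 (FDR = 1.45e-05). Slc37a4, the glucose-phosphate transporter, had -0.16 (FDR = 0.0863) at 48 hours and 0.47 (FDR = 1.51e-05) at 7 days. The 8 genes of the pentose phosphate pathway had 5 higher and 3 lower at 48 hours and 4 higher and 3 lower at 7 days. Taldo1, transaldolase, rose by 0.89 (FDR = 1.23e-17) and 0.32 (FDR = 7.23e-09). Rpia, ribose phosphate isomerase, had 0.23 (FDR = 4.55e-05) and -0.71 (FDR = 1.15e-13), and G6pdx, the entry enzyme, which lies on the lowered X chromosome, -0.66 (FDR = 9.38e-05) and -0.17 (FDR = 0.171). Without replicate 2 of sorafenib 48 hours, G6pdx had -0.53 (FDR = 6.22e-35) and -0.18 (FDR = 7.2e-08), and Pcx, on chromosome 19 in the same stretch, 0.46 (FDR = 1.16e-10) and 0.77 (FDR = 5.86e-27). Without it all 4 tested genes of gluconeogenesis and pyruvate carboxylation were called at 48 hours, 2 of them lower.

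Of 12 tested glycogen genes, 2 were higher and 5 lower at 48 hours and 5 higher and 2 lower at 7 days. Pgm1, which links glucose phosphate to glycogen, had -1.29 (FDR = 1.83e-17) at 48 hours and 0.44 (FDR = 5.45e-08) at 7 days, glycogen synthase Gys1 -0.022 (FDR = 0.722) and 1.21 (FDR = 2.92e-16), and the brain-type phosphorylase Pygb -0.47 (FDR = 4.08e-12) and -0.79 (FDR = 1.26e-16). Pgm1 and Gys1 also fell between the vehicle groups, with -1.66 (FDR = 6.87e-19) and -1.38 (FDR = 9.65e-17). The 6 genes of the methylglyoxal, D-lactate and glycerol-phosphate branch had 2 higher and 2 lower at 48 hours and 2 higher and 1 lower at 7 days. Gpd2, the mitochondrial glycerol-phosphate dehydrogenase, rose by 0.58 (FDR = 4.17e-14) and 0.65 (FDR = 3.1e-15), Gpd1l had 0.20 (FDR = 1.19e-05) and -0.52 (FDR = 8.65e-13), and Hagh, a glyoxalase, -0.26 (FDR = 0.0104) and 0.22 (FDR = 0.0246). Hagh lies on chromosome 17 in the lowered stretch, and without replicate 2 of sorafenib 48 hours it had -0.17 (FDR = 0.0306) and 0.22 (FDR = 0.0016). Lower calls at 7 days without that library numbered 4 for glycogen and 2 for this branch.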

How the data were processed

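Libraries were made from total RNA with the Illumina Stranded mRNA kit. The deposited values are counts, whole numbers of reads for 40840 genes, which the authors obtained after alignment to GRCm39 and left without normalization, filter or pooling. The submitters' processing notes name STAR 2.7.1a, featureCounts 2.0.6 and DESeq2 1.40.2. Strand setting and annotation are not given in the sources used here.

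Groups and replicate numbers came from the sample labels. The 20444 genes with 10 counts or more over the 16 libraries entered a robust quasi-likelihood fit (edgeR 4.0.16, R 4.3.3; TMM, 1 coefficient per group, no block), with calls made at an FDR under 0.05 (Benjamini-Hochberg, over the whole table). For normalized counts, the library total was multiplied by its TMM factor, scaled to a geometric mean of 1 over libraries, and divided into the count. Counts per kilobase used the exon length of the canonical transcript in GENCODE vM39. Members and lists were chosen with earlier results of these data known. Values in every library are given for members that average 100 normalized counts and were called at either time point with a log2 fold change of 1 or more in size, or called in opposite directions. Of each of the 6 lists, the 3 genes of that abundance with the largest change are named. The means of Ldha, Pgk1 and Gapdh were set side by side after their values were seen. Alternatives were DESeq2 1.42.0 or its size factors, total counts, other filters, a fold threshold, 2 groups alone, a replicate block, limma 3.58.1 voom with quality weights, and each library left out, and for shares counts without length and, chosen after seeing the data, the union of exons. A count of 3 equals 2.44 to 4.54 normalized counts. The fit was tested on simulated data with the same dispersion for all genes and no deviating library. That test does not cover the differences between replicates given next. Within groups, every pair of libraries had a chi-square per gene of at least 1.58, where counting error alone gives 1. The largest values, 53.1 to 71.5, were those of DMSO 7-day replicate 4 with the rest of its group, whose own pairs had 1.94 to 3.2. Sorafenib 48-hour replicate 2 had 32.6 to 38.0 with its group. In DMSO at 48 hours, replicates 1 and 4 had 5.09 and replicates 2 and 3 had 5.95, against 18.7 to 42.7 in the pairs across. The source of these differences between replicates was not tested.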

Additional observations from a re-analysis of the deposited data

Results flagged for a closer look

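The response to sorafenib differed between 7 days and 48 hours for 27 members, by the interaction term of edgeR's quasi-likelihood test. The 7-day log2 fold change was above the 48-hour one, by the difference given, for Pdk1 (2.69), Pfkl (2.36), Pfkp (1.89), Pgk1 (1.85), Slc2a1 (1.70), Hk1 (1.54), Slc16a3 (1.37), Ldha (1.18), Tpi1 (0.97) and Pdk2 (0.91), and by less for Gpi1 (0.90), Pkm (0.83), Eno1 (0.76), Aldoa (0.75), Eno3 (0.73), Pgam1 (0.65), Pfkfb4 (0.58), Pfkm (0.54) and Gapdh (0.52). It was below the 48-hour one for Aldoc (-2.31), Ldhb (-0.92), Slc16a1 (-0.75), Pdhx (-0.53), Slc2a3 (-0.40), Pfkfb3 (-0.40), Dlat (-0.27) and Pdhb (-0.18). For Pfkm, Pgk1 and Pgam1 this rests in part on the library with the lowered stretch, and the values without it were 0.40, 1.73 and 0.52.

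In 12 of 148 sets of 4 libraries, 1 library stood far from the other 3, where chance gives about 1 in 20. Sorafenib 48-hour replicate 2 did so for Pfkm (1421 normalized counts), Pgk1 (2233) and Pdk3 (997), all in its lowered stretch. DMSO 7-day replicate 1 was high for Pfkl (2062) and Pdk1 (876), DMSO 7-day replicate 3 stood apart for Mpc1 (306) and DMSO 7-day replicate 2 for Mpc2 (436). The others were Pfkm in DMSO 48-hour replicate 3 (2416), Pfkfb3 in DMSO 48-hour replicate 2 (1588), Pfkfb4 in sorafenib 48-hour replicate 1 (98.2), Ldhb in sorafenib 7-day replicate 2 (209.5) and Slc2a2 in sorafenib 7-day replicate 2 (2.44, near the floor of 3 counts).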

How the results depend on the processing

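With a threshold of 1 added on the absolute log2 fold change, 14 members were called at 48 hours (1 higher, 13 lower), 9 at 7 days (4 higher, 5 lower), 9 in the interaction (8 higher, 1 lower) and 11 between the vehicle groups (0 higher, 11 lower). With total counts as the only scaling, 4 members were higher between the vehicle groups in place of 7 (19.8% of all genes in place of 23.5%). Leaving out 1 library at a time gave 4 to 9 there, with 4 without DMSO 7-day replicate 3. The other counts of members stayed within 1.5 times under every setting run, from 32 to 36 at 48 hours and from 26 to 32 at 7 days. No isozyme share changed direction or its side of the threshold under other lengths, but 8 of the 20 differences moved by over 1.5 times, those of Aldoa, Slc16a1, Pfkfb1 and Pkm at both times. With 1 library left out the exact test cannot reach its threshold.

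Values not called with all libraries that changed sign with 1 library left out were those of Pdha1 at 48 hours (-0.022 to 0.21), Pfkl at 7 days (-0.13 to 0.057), Pfkfb4 at 7 days (-0.051 to 0.071) and the interaction of Pdk3 (-0.14 to 0.072). Pdha1 also did so with total counts (-0.0016), and the interaction of Pdk3 with DESeq2 size factors (0.0065), total counts (0.086), at least 10 counts in every library (0.056), the replicate block (0.012) and DESeq2 (0.0099). The cause was not tested. With genes kept from 1 count on, Pfkm, Pfkp and Pfkfb1 lost their 48-hour calls. With 1 library left out, Pfkm lost its 48-hour call in 11 of the 16 fits and Mpc1 in 4. Pfkfb1 lost its call without DMSO 48-hour replicate 2, sorafenib 48-hour replicate 2 or sorafenib 48-hour replicate 3, and Pdk4 without the last of these.

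Same-numbered libraries of 2 groups had correlations of -0.18 to 0.13 in their deviations from the group means. Of 8 libraries, 1 at 48 hours and 3 at 7 days correlated best with their own number. With 4 libraries per group and large differences between some replicates, these values cannot decide whether replicate numbers pair the libraries. With the replicate block, 33 members were called at 48 hours, 27 at 7 days, 27 in the interaction and 33 between the vehicle groups. Over all genes, 10390, 10842 and 6837 of 20444 were called in the first 3 of these, and 11076 of 18638 between the vehicle groups. Pfkm and Pfkfb1 lost their 48-hour calls with the block, and Pdha1 and Mpc1 gained one between the vehicle groups. Depth limits Slc2a2, Pklr and Pdk4.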
